A study of Sus scrofa with 20 samples.

Results

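NADPH oxidase transcripts were examined in caecal mucosa of 20 pigs of a Large White x Landrace cross. The genes were the phagocyte oxidase genes NCF1, NCF4, CYBA, CYBB and RAC2 and the oxidase genes of gut epithelium NOX1, DUOX2 and DUOXA2, as named by the gene symbols of the array platform. Values were present for 6 of these 8 genes, among 10567 named genes with values in all, while RAC2 and NOX1 were not analysed here because their probesets held no value. Where a gene had several probesets, the one with the highest mean over the 20 pigs was used.

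The pigs were selected as the extremes of residual feed intake (RFI) within litter and sex, and no group received a treatment. The high feed efficiency group (high FE, low RFI) and the low feed efficiency group (low FE, high RFI) held 10 pigs each. They came from 5 litters, named here by sow (1406, 1410, 1411, 1417 and 1435), and each litter gave a male and a female of high FE and a male and a female of low FE. Litters were kept together in pens, so effects of sow, litter and pen cannot be told apart. Mucosa was scraped from the tip of the caecum at slaughter, when all pigs were of about the same age, and total RNA was hybridised to the Affymetrix porcine snowball array. Levels are log2 values after robust multichip averaging, in which the arrays are made comparable, so that a difference of 1 is a doubling. Every pig was read on 1 array, and the number of pigs limits the precision.

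The NADPH oxidases pass electrons from NADPH to oxygen and release superoxide or hydrogen peroxide. In neutrophils and macrophages the membrane proteins CYBB, which is catalytic, and CYBA, its partner, are joined on activation by cytosolic subunits such as NCF1 and NCF4 and by the small GTPase RAC2, and the oxidants serve to kill microbes taken up by the cell. In the epithelium of the large intestine DUOX2 releases hydrogen peroxide towards the lumen, and DUOXA2 is the maturation factor that DUOX2 needs to leave the endoplasmic reticulum, roles that are best known from human and mouse. CYBA is also made by many cells other than phagocytes, where it partners with NOX1 and related enzymes.

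In the Sscrofa11.1 annotation of RefSeq the phagocyte genes are scattered. NCF1 lies on chromosome 3 (11820367 to 11834394), NCF4 on chromosome 5 (10876147 to 10994002), CYBA on chromosome 6 (1015212 to 1021422) and CYBB, which RefSeq lists under an older symbol, on chromosome X (33654656 to 33678346). The dual oxidases and their maturation factors form 1 block of 68874 bases on chromosome 1, in the order DUOX1, DUOXA1, DUOXA2 and DUOX2. DUOXA2 (126616631 to 126620359) and DUOX2 (126620468 to 126641406) are 108 bases apart, DUOXA1 and DUOXA2 are 894 bases apart, and DUOX1 and DUOXA1 are 2057 bases apart. The parts of each gene that the probes cover are not given in the sources used here.

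By unadjusted p the measured oxidase gene with the clearest difference between the groups was NCF1, the organiser subunit that brings the cytosolic complex to the membrane. Its level was 6.0 at the lowest, 6.29 at the median and 6.84 at the highest in high FE pigs, against 5.71, 5.95 and 6.78 in low FE pigs. The groups overlapped. The low FE female of litter 1411 stood at 6.78 and the other 9 low FE pigs lay between 5.71 and 6.12, while the lowest high FE pig, the male of litter 1435, lay within that range at 6.0. High FE pigs averaged 6.36 ± 0.28 and low FE pigs 6.02 ± 0.29 (SD, n = 10 each). With sow in the limma model the difference was 0.34 ± 0.11 (SE), with a 95% interval of 0.11 to 0.57, an unadjusted p of 0.00651 and rank 109 of 23140 probesets tested. The Benjamini-Hochberg adjusted p over all of them was 0.980, so the difference did not pass the test. Within litter and sex the high FE pig had more NCF1 transcript in 9 of 10 pairs, by 0.06 to 0.80, and less in the females of litter 1411, by a difference of -0.50.

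**Figure D1:**
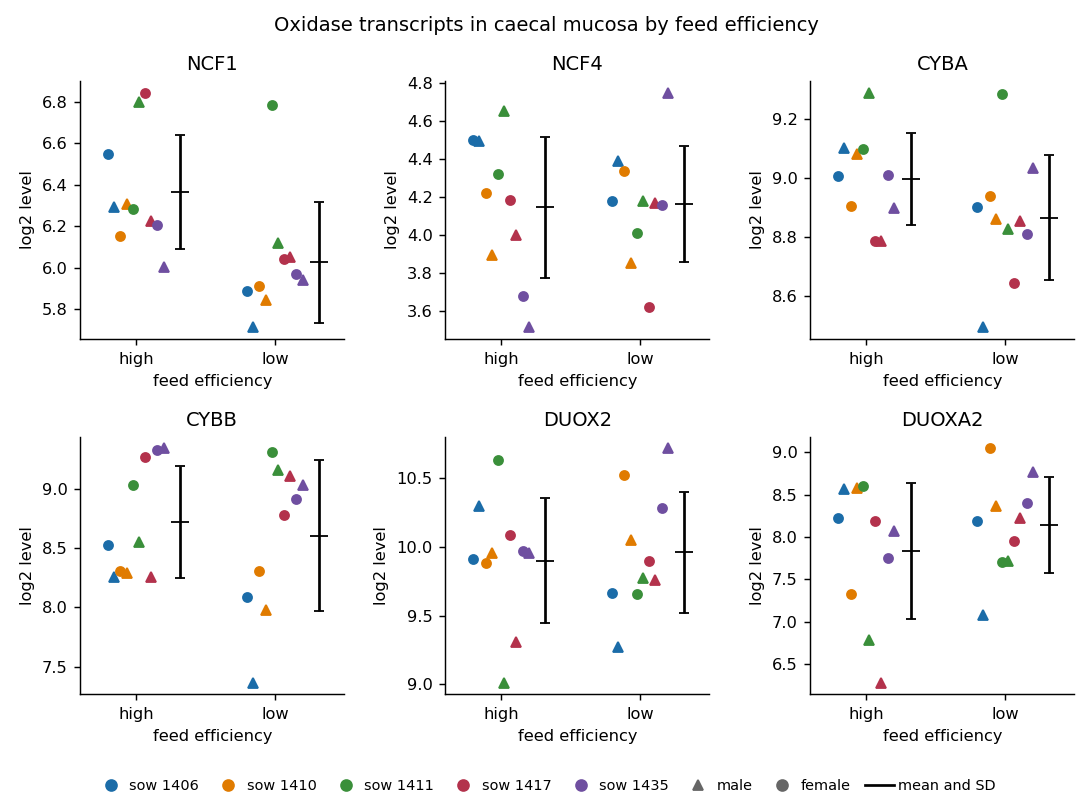
Log2 level (vertical axes) of the 6 measured oxidase genes in 10 high and 10 low feed efficiency pigs; each point is a pig, colour gives the sow, triangles are males and circles females, and black bars give the mean and SD. In the NCF1 panel 9 of the low feed efficiency pigs sit at or under 6.12, while the groups overlap widely for the other 5 genes.

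The second NCF1 probeset, which is dimmer, gave a difference of 0.10 ± 0.13 (SE, limma adjusted p = 0.980) and was higher in the high FE pig in 5 of 10 pairs. The 2 NCF1 probesets correlated with an r of 0.512 over the 20 pigs, or 0.313 after each litter was centred on its mean. The NCF1 difference therefore rests on 1 of its 2 probesets. At an unadjusted p under 0.05 it was 1 of 6 measured oxidase genes, where 4.48% of all probesets passed that threshold and 0% passed the adjusted one.

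The other phagocyte subunits differed less than their spread between pigs. For CYBA, the membrane partner subunit, the lowest, median and highest levels were 8.79, 9.01 and 9.29 in high FE pigs, against 8.50, 8.86 and 9.28 in low FE pigs. The groups overlapped over most of their range, and the difference was 0.13 ± 0.08 (SE, adjusted p = 0.980), with the high FE pig above its low FE littermate in 6 of 10 pairs. A second CYBA probeset differed by 0.02.

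CYBB, the catalytic subunit, was measured at 8.26, 8.54 and 9.34 in high FE pigs, against 7.37, 8.84 and 9.31 in low FE pigs, again as lowest, median and highest. High FE pigs averaged 8.72 ± 0.47 and low FE pigs 8.60 ± 0.64 (SD, n = 10 each), although the median was lower in high FE. The difference of 0.11 ± 0.15 (SE, adjusted p = 0.980) had a 95% interval of -0.21 to 0.43 and turned to -0.02 without litter 1406. By litter, both high FE pigs lay above their low FE littermates of the same sex in litters 1406, 1410 and 1435, though the females of litter 1410 were equal to 2 decimals, and below them in litter 1411.

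NCF4, a cytosolic subunit that binds phosphoinositides, lay at 3.52, 4.20 and 4.65 in high FE pigs, against 3.62, 4.17 and 4.75 in low FE pigs. Neither group was the higher, with a difference of -0.02 ± 0.14 (SE, adjusted p = 0.999) that became 0.19 without litter 1435. In that litter the high FE female and male had 3.68 and 3.52, against 4.16 and 4.75 in the low FE female and male.

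The epithelial oxidase genes had mean differences below 0 but no clear direction over the pairs, and passed no threshold. The median of DUOX2 was even higher in high FE. For DUOX2 the lowest, median and highest levels were 9.01, 9.95 and 10.63 in high FE pigs, against 9.27, 9.83 and 10.72 in low FE pigs. The groups overlapped almost entirely, the high FE pig was above its littermate in 4 of 10 pairs, and the difference was -0.06 ± 0.19 (SE, adjusted p = 0.991). Its sign turned without litter 1410 (0.02) and without litter 1435 (0.06). The other DUOX2 probeset gave -0.10 ± 0.20.

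DUOXA2 had the widest spread of the 6 measured genes over the 20 pigs, with an SD of 0.69. Its SD was 0.80 in high FE and 0.56 in low FE pigs, and in low FE pigs that of CYBB (0.64) was wider. It lay at 6.28, 8.13 and 8.60 in high FE pigs, against 7.08, 8.20 and 9.05 in low FE pigs. Low values of this gene came from the high FE males of litters 1417 (6.28) and 1411 (6.78) and the low FE male of litter 1406 (7.08), so both groups held them. The difference was -0.31 ± 0.29 (SE, adjusted p = 0.980), with a 95% interval of -0.92 to 0.30 and 5 of 10 pairs in each direction.

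Of 7 further genes of the oxidase families with values, 1 had a difference above 0, against 51.1% of all probesets. None passed an unadjusted p under 0.05, against 4.48% of all probesets. DUOXA1, the maturation factor of DUOX1, differed by -0.30 ± 0.16 (SE, unadjusted p = 0.0675, adjusted p = 0.980), and DUOX1 by -0.13 ± 0.22. NOX3, known from the inner ear of the mouse, differed by -0.21 and the calcium-dependent NOX5 by 0.16. Both were dim, with mean levels of 2.77 and 3.31 over the pigs. NOXO1 and NOXA1, the organiser and activator of NOX1, differed by -0.04 and -0.02, and the small GTPase RAP1A by -0.12.

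**Figure D2:**
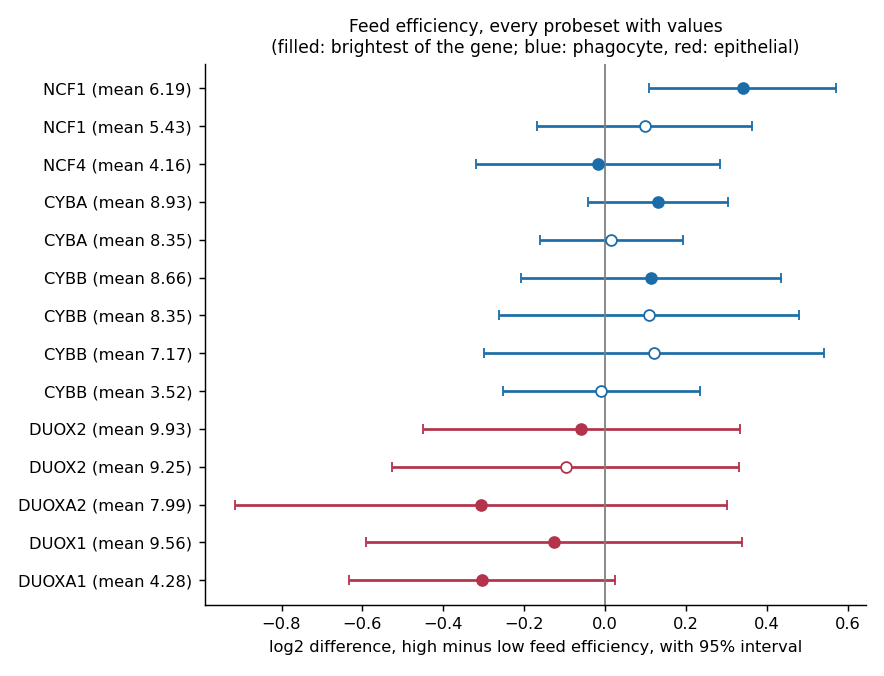
Difference between high and low feed efficiency (horizontal axis, log2, high minus low) for every probeset of the measured oxidase genes and of DUOX1 and DUOXA1, with 95% intervals from the limma model with sow; filled points are the brightest probeset of a gene, blue marks phagocyte and red epithelial genes. The interval of the brighter NCF1 probeset (0.11 to 0.57) lies above 0, and every other interval includes 0.

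To set the phagocyte subunits against the epithelial genes, each gene was centred on its mean over the pigs and averaged over NCF1, NCF4, CYBA and CYBB and over DUOX2 and DUOXA2. The phagocyte average was 0.07 ± 0.17 in high FE and -0.07 ± 0.26 in low FE pigs, and the epithelial average was -0.09 ± 0.61 in high FE and 0.09 ± 0.49 in low FE pigs (SD, n = 10 each). Their difference, phagocyte minus epithelial, was higher in the high FE pig in 8 of 10 pairs, by 0.32 on average. That is less than the SD of 0.56 over the 20 pigs and the SD of 0.74 over the pair differences. The phagocyte average alone was higher in the high FE pig in 7 of 10 pairs and the epithelial average in 5 of 10. Without CYBA the phagocyte average differed by 0.14, the same size as with it. No test was made on these averages.

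Caecal mucosa is a mixture of cells, so that fewer phagocytes and less transcript per phagocyte cannot be told apart here. The mean over 7 measured of 14 macrophage and dendritic cell markers ranged from 6.94 to 7.67 in high FE pigs, against 6.84 to 7.42 in low FE pigs, and all 7 had a difference above 0 with a median of 0.28, against 51.1% above 0 and a median of 0.0035 over all probesets. Of the T and NK cell markers 7 of 8 had a difference above 0, with a median of 0.03. Of these 8 markers 2 had an unadjusted p under 0.05, against 4.48% of all probesets. Among them NKG7 averaged 7.04 in high FE and 6.70 in low FE pigs, and GZMB 8.67 and 8.33. Of the macrophage and dendritic cell markers TYROBP (0.44), C1QC (0.30), C1QA (0.29) and CD14 (0.28) passed an unadjusted p under 0.05, and none passed the adjusted threshold. Over 7 measured of 12 neutrophil markers the mean ranged from 3.68 to 4.27 in high FE pigs, against 3.71 to 4.84 in low FE pigs, with 3 of 7 above 0. The neutrophil genes S100A8, a calprotectin subunit, and MPO, the granule myeloperoxidase, were close to the bound of the filter on low means (1.62), with mean levels of 2.09 and 1.69 in high FE pigs, against 2.10 and 2.16 in low FE pigs. The part of these markers in the NCF1 difference was not tested. Epithelial keratins and claudins were present in all pigs, with a mean over 6 measured of 8 markers of 9.78 to 10.47 in high FE pigs, against 9.87 to 10.42 in low FE pigs.

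Between litters, CYBB was the measured gene with the clearest differences. Litter 1406 had CYBB levels of 8.53 (high FE female), 8.26 (high FE male), 8.09 (low FE female) and 7.37 (low FE male). Litter 1410 had 8.31, 8.29, 8.31 and 7.98 in the same order. These 8 pigs lay between 7.37 and 8.53, whereas 11 of the 12 pigs of the other litters were above 8.53 and the remaining pig, the high FE male of litter 1417, was at 8.26. Litters 1406 and 1410 were set against the others after the values were seen, so a gap follows in part from that choice.

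Litter 1417 had 9.27 (high FE female), 8.26 (high FE male), 8.78 (low FE female) and 9.10 (low FE male) for CYBB. Litter 1411 had 9.03, 8.55, 9.31 and 9.15 in that order, and litter 1435 had 9.33, 9.34, 8.91 and 9.03. From low to high the litter means were 8.06 ± 0.50 (sow 1406), 8.22 ± 0.16 (1410), 8.85 ± 0.45 (1417), 9.01 ± 0.33 (1411) and 9.15 ± 0.21 (1435; SD, n = 4 each). Of the 4 steps between neighbours only that between litters 1410 and 1417, of 0.63, was larger than the SD within either litter. Litters accounted for 67.1% of the variance of CYBB between pigs.

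The range of the litter means of CYBB was 1.09, with an F of 9.05, an unadjusted p of 0.000498 and rank 123 of 23837 probesets in the limma model with feed efficiency and sex. The adjusted p was 0.0966, so CYBB did not pass the test. In this comparison 0.126% of all probesets passed the adjusted threshold and 16.1% an unadjusted p under 0.05, and of 6 measured oxidase genes 0 passed the adjusted threshold and 1, CYBB, had an unadjusted p under 0.05. The other 3 CYBB probesets had ranges of 1.07 (p = 0.00237), 0.64 (p = 0.0151) and 0.83 (p = 0.0358), with adjusted p of 0.138 to 0.281. Over the alternatives tried the adjusted p of CYBB lay between 0.0441, which passed, when probesets under the median level were left out, and 0.513 with the pig number as a covariate. Pig number itself differed between litters, with 425 to 440 in litters 1417 and 1435 and 401 to 420 in the others.

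None of the brightest probesets of the other genes passed for litter, adjusted or not. The litter means spanned 0.47 for NCF1 (unadjusted p = 0.0748), 0.40 for NCF4 (p = 0.382) and 0.36 for CYBA (p = 0.155), while the second CYBA probeset spanned 0.45 (p = 0.0428, adjusted p = 0.297). NCF1 was lowest in litter 1435 (6.03 ± 0.12) and highest in litter 1411 (6.49 ± 0.35; SD, n = 4 each), an order that CYBB did not share. For DUOX2 the means spanned 0.47 (p = 0.376) and for DUOXA2 0.67 (p = 0.503), and no neighbouring litters in the order of either gene were further apart than the larger of their SDs. Litters 1417 and 1411 had the lowest means of both DUOX2 and DUOXA2, and litters 1410 and 1435 the highest. The share of variance between litters was 21.4% for DUOX2 and 16.4% for DUOXA2, against 67.1% for CYBB. Such a share is above 0 even where litters do not differ, since means of 4 pigs vary.

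**Figure D3:**
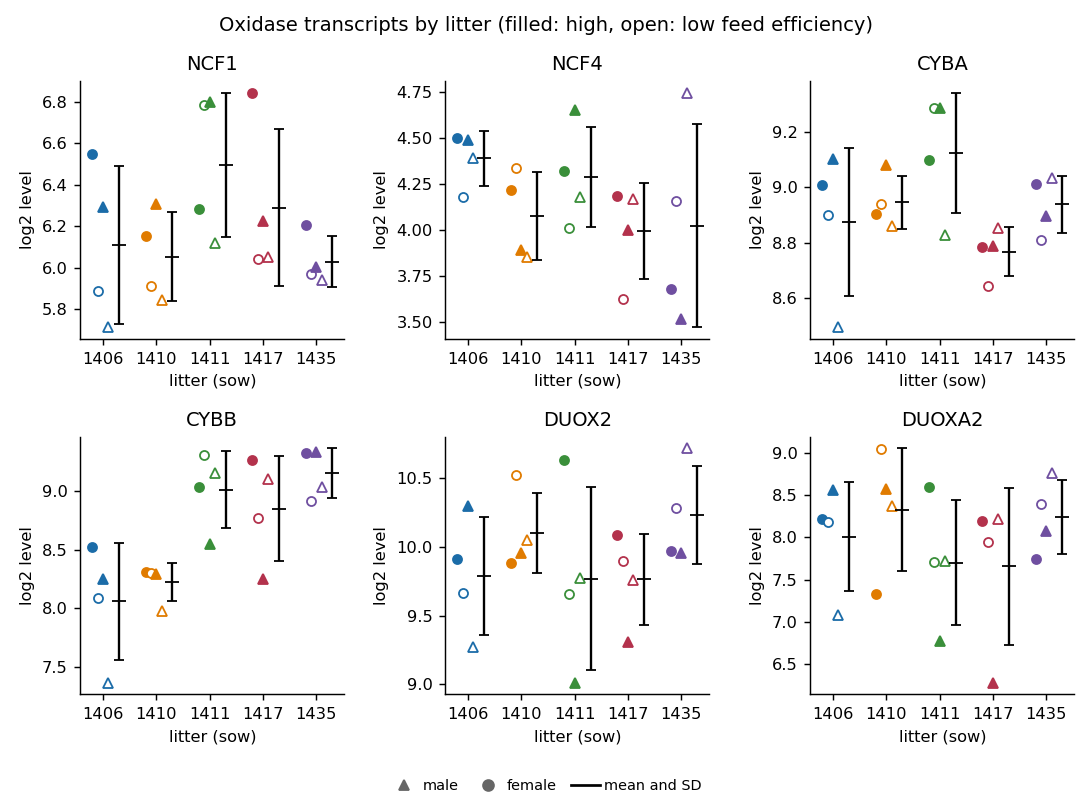
Log2 level (vertical axes) of the 6 measured oxidase genes in the 5 litters; each point is a pig, filled for high and open for low feed efficiency, triangles are males and circles females, and black bars give the mean and SD of 4 pigs. CYBB is low in litters 1406 and 1410, with means of 8.06 and 8.22, and in every panel litters next to each other in the order of means overlap.

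Markers of B cells, which also carry the phagocyte oxidase, differed between the litters as well. Their mean over 6 measured of 9 markers was 6.31 in litter 1406, 6.62 in litter 1410, 7.08 in litter 1417, 7.35 in litter 1435 and 7.71 in litter 1411. Litters 1406 and 1410 were the lowest for these markers as for CYBB. MS4A1, the B cell surface protein CD20, had litter means spanning 2.43 (adjusted p = 0.0397) and was the marker that passed. Of the B cell markers 5 of 6 had an unadjusted p under 0.05. Of all probesets 16.1% had one and 0.126% passed the adjusted threshold. The mean of the macrophage and dendritic cell markers was 7.21 to 7.29 over the litters, with 0 of 7 at an unadjusted p under 0.05. Neutrophil markers ran in another order than CYBB. Their mean was 4.42 in litter 1406, 4.06 in litter 1410, 4.02 in litter 1411, 3.92 in litter 1417 and 3.88 in litter 1435. Of these markers 4 of 7 had an unadjusted p under 0.05, among them S100A8 and MPO, which were close to the bound of the filter on low means. The part of any cell type in the CYBB differences was not tested.

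Between the sexes no measured oxidase gene passed either threshold, in a comparison in which 0% of all probesets passed the adjusted threshold and 4.29% an unadjusted p under 0.05. CYBB, which lies on the X chromosome, differed by -0.25 ± 0.15 (SE, male minus female, unadjusted p = 0.101), DUOX2 by -0.24 ± 0.18 and DUOXA2 by -0.30 ± 0.29. All 3 were lower on average in males, and each interval included 0. The difference of high minus low FE did not vary with sex beyond its error either, with 0% of probesets passing the adjusted threshold and 4.11% an unadjusted p under 0.05, among them 0 of the 6 oxidase genes. For NCF1 the difference in males exceeded that in females by 0.10 ± 0.22, with the high FE pig above in 5 of 5 male and 4 of 5 female pairs. For DUOX2 that term was -0.30 ± 0.37 and for DUOXA2 -0.13 ± 0.59 (SE, adjusted p = 0.999 for all 3).

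Whereas neither feed efficiency nor litter separated the epithelial oxidase genes, these genes varied together from pig to pig. DUOX2 and DUOXA2 correlated with a Pearson r of 0.857 (permutation p = 1e-05, the smallest that the resampling can give) and a Spearman rho of 0.85 (permutation p = 3e-05) over the 20 pigs. Without the 2 pigs farthest from the median of DUOX2 the r was 0.821. After each litter was centred on its mean it was 0.856, it was positive in 5 of 5 litters, and it was 0.825 to 0.877 when each litter was left out in turn. The adjusted permutation p over the 28 pairs of genes computed was 9.33e-05 for r over all pigs and 0.00014 for the litter-centred r. The high FE female of litter 1411 (DUOX2 10.63, DUOXA2 8.60) and male of that litter (9.01 and 6.78) were at opposite ends for both genes.

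DUOX1, the second dual oxidase of the block on chromosome 1, also followed DUOX2. The r was 0.941 (permutation p = 1e-05) with a rho of 0.851 (permutation p = 2e-05), and 0.95 within litters. DUOX1 and DUOXA2 correlated with an r of 0.874 and a rho of 0.896 (both with a permutation p of 1e-05). DUOXA1, whose mean level was 4.28, had an r of 0.576 to DUOX2 (permutation p = 0.0078, adjusted p = 0.0312), but neither the rho of 0.463 (adjusted p = 0.173) nor the r within litters of 0.572 (adjusted p = 0.0696) passed. Its r to DUOXA2 was 0.698 (permutation p = 0.00071, adjusted p = 0.00398), with a rho of 0.605 (adjusted p = 0.0302) and an r within litters of 0.659 (adjusted p = 0.0417). The r of DUOXA1 to DUOXA2 was 0.435 without the 2 pigs farthest from the median of DUOXA2. Over the 6 pairs of these 4 genes the median r was 0.785. DUOX1 and DUOX2 are paralogues of similar sequence, and whether probes of one gene also detect the other was not tested.

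In limma models of every probeset on the level of DUOX2, with litter, feed efficiency and sex included, 0.00839% of 23836 probesets passed the adjusted threshold and 5.68% an unadjusted p under 0.05. The 2 probesets were the other one of DUOX2 (slope 1.09 ± 0.09 per log2 unit, adjusted p = 6.65e-05) and that of DUOX1 (1.15 ± 0.12, adjusted p = 0.00168). The DUOX1 slope passed in 19 of 20 fits that each left out 1 pig, the exception being without the high FE female of litter 1411 (adjusted p = 0.102). DUOXA2 had the steepest slope of the oxidase genes, 1.39 ± 0.23 (SE), with a 95% interval of 0.91 to 1.88. It ranked 4 of all probesets by p with an adjusted p of 0.0966, which fell short of the threshold, and of 0.0205 with the pig number as a covariate. None of the 4 phagocyte subunits passed an unadjusted p under 0.05, with slopes of 0.32 for CYBB, 0.26 for NCF4, 0.07 for CYBA and -0.06 for NCF1.

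**Figure D4:**
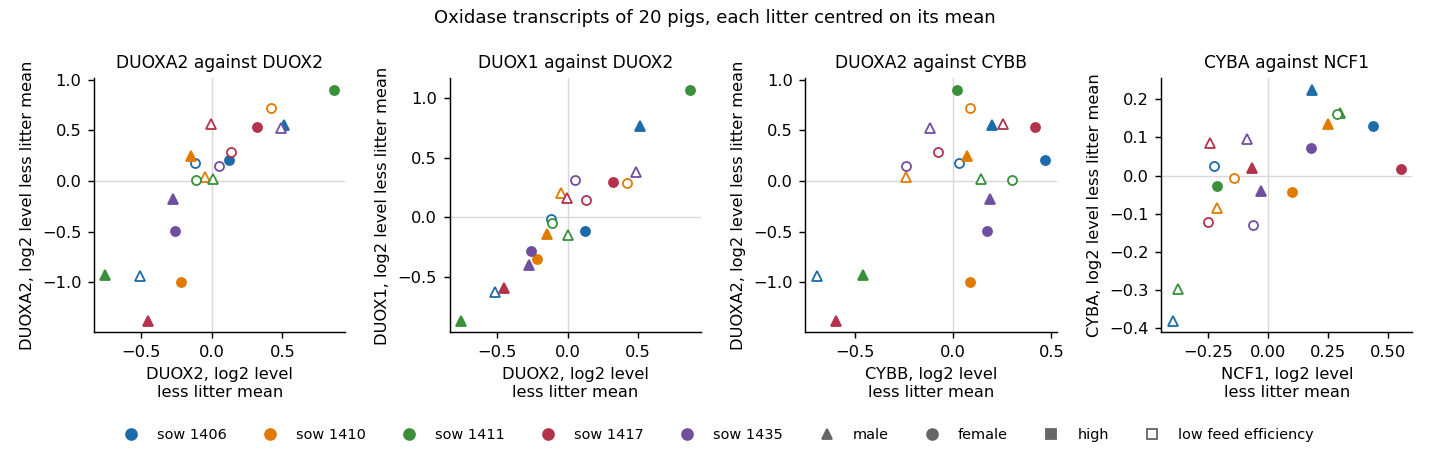
Pairs of oxidase transcripts in 20 pigs, each value less the mean of its litter (log2, both axes); colour gives the sow, triangles are males and circles females, and filled symbols are high and open symbols low feed efficiency. Within litters DUOXA2 and DUOX1 follow DUOX2 with an r of 0.856 and 0.95, while CYBA against NCF1 has an r of 0.685 and DUOXA2 against CYBB 0.590.

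Of 10340 named genes other than the measured oxidase subunits, the 5 most like DUOX2 by partial correlation over the 20 pigs (litter, feed efficiency and sex removed) were DUOX1 (0.947), RHOF (0.861), a small GTPase of filopodia, BAMBI (0.838), a decoy receptor for transforming growth factor beta, TRPA1 (0.821), an irritant-sensing ion channel, and MRPL35 (0.816), a mitochondrial ribosomal protein. The partial r of DUOXA2 was 0.858, under that of RHOF and above that of BAMBI. At the other end stood COQ7 (-0.913), an enzyme of ubiquinone synthesis, and PRKDC (-0.812), the catalytic subunit of DNA-dependent protein kinase. Besides DUOX1 none of these genes had a slope that passed the adjusted threshold.

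Over the 6 pairs of the phagocyte subunits NCF1, NCF4, CYBA and CYBB the median r was 0.295, with a range of -0.251 to 0.597, against 0.785 for the epithelial pairs, a difference that was not tested. The pair at the upper end was NCF1 and CYBA (r 0.597, permutation p = 0.0054, adjusted p = 0.0252; rho 0.459, permutation p = 0.0433, adjusted p = 0.173). Within litters its r was 0.685 (adjusted p = 0.0301) and positive in 5 of 5 litters, and without the 2 pigs farthest from the median of NCF1 it was 0.721. The r was 0.311 without litter 1411 and 0.834 without litter 1417, so this relation depended on which litters were used. NCF1 and CYBB had an r of 0.403 (permutation p = 0.0765, adjusted p = 0.268; rho 0.346, permutation p = 0.134).

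Between the phagocyte subunits and the epithelial genes, DUOX1 and DUOXA1 included, 16 pairs had a median r of 0.096, with a range of -0.224 to 0.301. The pair of CYBB and DUOXA2 had an r of 0.199 (permutation p = 0.403) and a rho of -0.023 (permutation p = 0.928) over all pigs, but 0.590 after litters were centred (permutation p = 0.0234, adjusted p = 0.0819), with a positive r in 3 of 5 litters. The high FE males of litters 1417 and 1411 and the low FE male of litter 1406 were low for both genes within their litters. In the model on CYBB the slope of DUOXA2 was 1.36 ± 0.43 (SE, unadjusted p = 0.00629, rank 316 of 23836 probesets, adjusted p = 0.474). It was 1 of 5 measured subunits and maturation factors set against CYBB with an unadjusted p under 0.05, where 7.58% of all probesets had one and 0.00839% passed the adjusted threshold. Without the high FE male of litter 1417 its unadjusted p was 0.050. Of the further oxidase genes NOX3 and NOX5 had slopes of -0.51 (unadjusted p = 0.0490) and -0.47 (p = 0.0325) on CYBB, with adjusted p of 0.655 and 0.625.

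**Figure D5:**
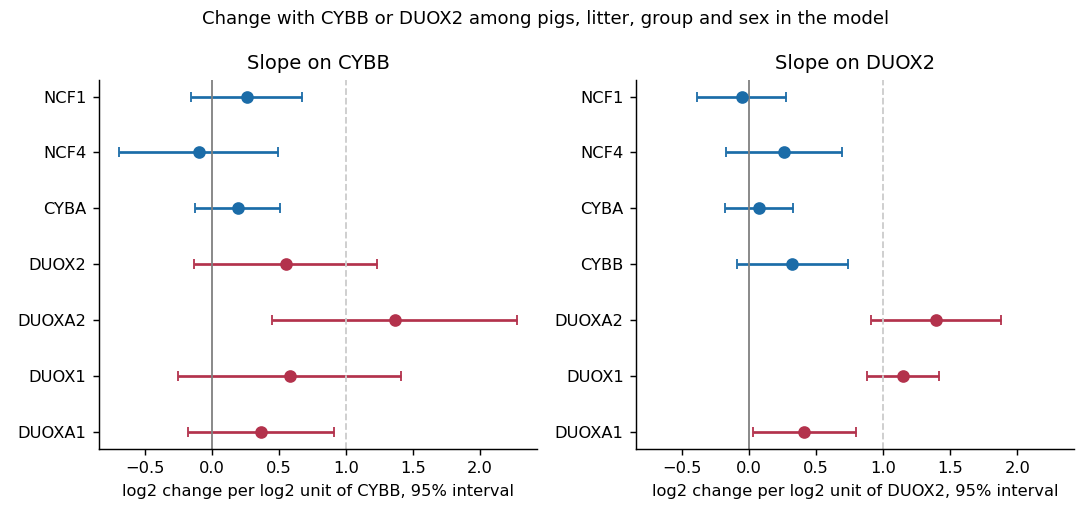
Change in log2 level per log2 unit of CYBB (left) or of DUOX2 (right) among 20 pigs, from limma models with litter, feed efficiency and sex, with 95% intervals; blue marks phagocyte and red epithelial genes, the grey line is 0 and the dashed line 1. DUOXA2 (1.39) and DUOX1 (1.15) lie far from 0 on DUOX2, and the intervals of all phagocyte subunits include 0 in both panels.

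The 2 probesets that passed on CYBB were another of its own (slope 1.1 ± 0.15) and that of PDCD1LG2 (1.42 ± 0.20, adjusted p = 0.0392 for both), which encodes a ligand of the receptor PD-1 on dendritic cells and macrophages. PDCD1LG2 passed in 6 of 20 fits that each left out 1 pig, with an adjusted p up to 0.398 without the high FE male of litter 1417. The genes most like CYBB by partial correlation were CTSC (0.901), a lysosomal protease that activates the proteases of immune granules, CYTIP (0.878), an adaptor of blood cell adhesion, ATMIN (0.878), a transcription factor, SLA-DRA (0.873), a chain of the class II antigen-presenting molecule, and LCP2 (0.868), an adaptor of immune receptor signalling. KLC1 (-0.868), a kinesin light chain, and CCDC85C (-0.843) stood at the opposite end. None of these 7 genes had a slope that passed. Of the macrophage and dendritic cell markers 7 of 7 had a slope above 0 on CYBB, with a median of 0.59 and 4 at an unadjusted p under 0.05. Of all probesets 44% had a slope above 0 on CYBB, their median was -0.04 and 7.58% had an unadjusted p under 0.05. Markers of T and NK cells also had slopes above 0 in 8 of 8, with a median of 0.32 and 2 (CD8A and GZMB) at an unadjusted p under 0.05. Of the B cell markers 3 of 6, of the neutrophil markers 2 of 7 and of the epithelial markers 0 of 6 had a slope above 0. Plasma cell markers had one in 3 of 3, and markers of eosinophils and mast cells in 3 of 3. For colonocyte markers it was 2 of 4, for goblet cell markers 1 of 4 and for crypt stem cell markers 2 of 4. On DUOX2, 7 of 7 macrophage and dendritic cell markers had a slope above 0 too, with a median of 0.25. Of them 2 had an unadjusted p under 0.05, where 5.68% of all probesets had one and the median slope was -0.0024. Slopes on DUOX2 were above 0 in 7 of 8 T and NK cell, 5 of 6 B cell, 4 of 7 neutrophil and 2 of 6 epithelial markers. Colonocyte markers had slopes above 0 on DUOX2 in 4 of 4, with a median of 0.20 and 1 at an unadjusted p under 0.05. Goblet cell and crypt stem cell markers had them in 0 of 4 each. For plasma cells it was 2 of 3 and for eosinophils and mast cells 3 of 3. None of these markers passed the adjusted threshold on CYBB or DUOX2, and the difference between the cell types was not tested.

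Among genes that act with the oxidases, 9 of 18 regulators of oxidase assembly were measured. None passed the adjusted threshold for feed efficiency, where VAV3, an activator of Rac GTPases, had a difference of -0.46 ± 0.19 (SE, unadjusted p = 0.0274) and was 1 of 9 at an unadjusted p under 0.05, against 4.48% of all probesets. Between litters 4 of 9 had an unadjusted p under 0.05, against 16.1% of all probesets, among them the kinase SYK, which acts downstream of Fc receptors, with litter means spanning 1.20 (adjusted p = 0.0825). SYK was lowest in litters 1406 (6.01 ± 0.29) and 1410 (6.32 ± 0.20), the same 2 litters in which CYBB was lowest. In the limma model on CYBB, which includes litter, the slope of SYK was -0.09 ± 0.25 (SE, unadjusted p = 0.715). ARHGDIB, which holds Rac GTPases in the cytosol, was lowest in litter 1406 as well (8.09 ± 0.17) and spanned 0.73 (adjusted p = 0.105). In the limma model on CYBB 5 of 9 regulators had a slope above 0, against 44% of all probesets. Of the 9, 2 had an unadjusted p under 0.05, PRKCB (slope 0.77) and PIK3CG (0.55), against 7.58% of all probesets. None of the regulators passed the adjusted threshold on CYBB.

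Of 28 genes that make, remove or conduct hydrogen peroxide, 24 were measured and 22 passed the filters of the feed efficiency test. The peroxiredoxin PRDX4 (0.24, unadjusted p = 0.0112), the quinone reductase NQO1 (0.35, p = 0.0245) and the lipid peroxidase GPX4 (0.24) had the smallest p for feed efficiency, and none of the 22 passed the adjusted threshold. The adjusted p was 0.980 for PRDX4 and NQO1. Between litters 11 of 24 had an unadjusted p under 0.05, against 16.1% of all probesets, and 1 passed the adjusted threshold, against 0.126%. The gene that passed was GCLM, the modifier subunit of the enzyme that starts glutathione synthesis (range 0.90, adjusted p = 0.0476). GCLM was lowest in litters 1410 (5.93 ± 0.20) and 1406 (5.98 ± 0.12) and highest in litter 1435 (6.83 ± 0.25; SD, n = 4 each), which were also the litters with the lowest and highest CYBB means. With litter in the limma model the slope of GCLM on CYBB was 0.05 ± 0.17 (SE, unadjusted p = 0.758). The peroxiredoxin PRDX1 (0.48) and the water and glycerol channel AQP3 (0.59) came next, with adjusted p of 0.138 and 0.166.

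Of 19 signals and genes known to accompany DUOX2 in gut epithelium, 14 were measured. The chemokines CCL20 and CXCL8 were left out of the feed efficiency test by its filter on high SD, with differences of -0.18 and 0.36. Of the 12 tested 11 had a difference above 0, against 51.1% of all probesets, with a median of 0.09, against 0.0035 over all probesets. The cytokines IL17A (1.97 in high FE and 1.95 in low FE pigs) and IL22 (1.99 and 1.98) were among the 11, although their levels were close to the bound of the filter on low means (1.62). ZC3H12A, an RNase that limits inflammatory transcripts, had 0.21 (unadjusted p = 0.0499), and the cytokines IL1B (0.49) and TNF (0.18) followed, none of them past the adjusted threshold. The sensor of flagellin TLR5 spanned 1.3 between litters (adjusted p = 0.0800) and was lowest in litter 1406 (5.47 ± 0.40). On the level of DUOX2 only TLR5 of the 14 had an unadjusted p under 0.05, against 5.68% of all probesets, with a slope of -0.48 ± 0.18.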

How the data were processed

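RNA of caecal mucosa of 20 pigs was measured on the Affymetrix porcine snowball array (software GCOS 1.1.1 in the submitters' processing notes). The deposited values are the authors' log2 levels from robust multichip averaging with a custom probe layout on Sscrofa11.1, which equalises the arrays and can compress differences of dim probesets. Each of 20 columns belonged to a labelled pig, with 0 columns over, and 25092 of 47845 probesets held values. Genes were named from the platform annotation, of which 327 symbols were updated through RefSeq synonyms.

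The members and lists were chosen with earlier results of these data known. As in the study's methods, limma (version 3.58.1, R version 4.3.3) was fitted with sow as a factor, without probesets whose mean was under the 5% quantile (1.62) and, for feed efficiency and its interaction with sex, without those whose SD was above the 95% quantile in both groups (0.81 in each, just above that of DUOXA2 in high FE). Slaughter batch, part of the study's model, is missing from the labels and was not used. Litter, sex and slopes were fitted with sow, feed efficiency and sex and the first filter. Adjusted p are Benjamini-Hochberg values over all probesets tested, and an adjusted p under 0.05 passed. Correlations were tested with 100000 permutations.

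Named were the members, every measured gene of the oxidase families, the 3 genes of the peroxide and inducer lists with the smallest p for litter and for feed efficiency, and the 5 genes most and 2 least like CYBB and DUOX2. The regulators, PDCD1LG2 and the cell type markers were named after their values were seen. Alternatives were other filters, probesets, scalings, weights, covariates and blocks, and each litter and pig left out. The first principal component as a covariate and correlations without each litter were added after the data were seen. The fits were also run on simulated data with known changes and independent noise for each probeset. Such data lack the correlation between genes seen here, so they cannot show how the fits act on these data. Promoter motifs were not analysed here.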

Additional observations from a re-analysis of the deposited data

Results flagged for a closer look

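Of 42 groups of pigs tested, 3 held a pig that stood apart from the others by Dixon's test, where chance gives about 1 in 20. The low FE female of litter 1411 had an NCF1 level of 6.78, with the other 9 low FE pigs between 5.71 and 6.12, and without it the NCF1 difference was 0.41 (adjusted p = 0.959). In litter 1410 the low FE male had a CYBB level of 7.98, with its littermates between 8.29 and 8.31. In litter 1417 the high FE male had a DUOXA2 level of 6.28, with its littermates between 7.95 and 8.22, and without it the DUOXA2 difference was -0.13.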

How the results depend on the processing

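Over 34 results of the oxidase genes and 694 alternatives, direction and side of the threshold were kept in 661, the direction turned in 29 and the call changed in 4, while 0 lost a passed threshold because none had passed. The ranges of litter means among these results are never below 0, so their direction could not turn. Of the 4, the litter differences of CYBB without dim probesets and the slope of DUOXA2 on DUOX2 with the pig number passed the adjusted threshold, and the NCF1 difference and the litter differences of CYBB passed only an unadjusted p under 0.05 used in its place. The NCF1 difference stayed above 0 under every alternative (0.10 to 0.41) and its adjusted p was 0.557 or higher. With the pair of sow and sex as a replicate block it was 0.34 (adjusted p = 0.969) and 0 probesets passed, the same as without the block. The labels give no replicate numbers shared between the groups.

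For feed efficiency 1036 probesets had an unadjusted p under 0.05, and 0 to 1 passed the adjusted threshold when 1 pig was left out, the 1 being without the high FE female of litter 1417. For litter, 30 passed, against 116 without probesets under the median level, 124 with array weights, 3 with the pig number, 13 with the first principal component, 3831 at an unadjusted p under 0.05 and 11 to 72 without 1 pig. Pig number overlaps with litter, so the fit with it cannot fully tell this covariate from litter. The slopes on CYBB that passed numbered 2, against 0 with the pig number or the first principal component and 0 to 3 without 1 pig. On DUOX2 they numbered 2, against 5 with the pig number and 1 to 4 without 1 pig. Leaving out probesets changes the number tested; for the others the cause was not tested.

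Direction turned only for values that had not passed. The feed efficiency difference turned to -0.025 for CYBB without litter 1406, to 0.019 and 0.061 for DUOX2 without litters 1410 and 1435, and to 0.0021 with the pig number and 0.19 without litter 1435 for NCF4. Without 1 pig it was -0.19 to 0.045 for DUOX2 and -0.073 to 0.083 for NCF4. Its interaction with sex turned to 0.082 for CYBB without litter 1417, 0.059 for DUOX2 without litter 1411, 0.29 and 0.38 for DUOXA2 without litters 1411 and 1417, and -0.17 for NCF1 without litter 1411. The sex difference of CYBA turned to 0.020 and 0.014 without litters 1406 and 1411. The slope of NCF4 on CYBB was 0.061 with the pig number, 0.18 with the first principal component and -0.20 to 0.043 without 1 pig, and on DUOX2 that of CYBA was -0.0088 to 0.19 and that of NCF1 -0.14 to 0.24 without 1 pig. The cause was not tested.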
